A study of Mus musculus with 20 samples.

Results

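AMPA receptors carry most of the fast excitatory current between neurons, and the 10 genes described here encode the receptor and the auxiliary proteins that travel with it. They include the 4 pore-forming subunits *Gria1*, *Gria2*, *Gria3* and *Gria4*. The others are 4 transmembrane AMPA receptor regulatory proteins (TARPs), *Cacng2*, *Cacng3*, *Cacng4* and *Cacng8*, and 2 cornichons, *Cnih2* and *Cnih3*. All 10 were taken by gene symbol from the 47729 genes listed in the count files, of which 28659 had a count in at least 1 library. Every one of the 10 passed the filter on low counts in every comparison. Messenger RNA was measured in the hippocampus and the cortex of C57Bl/6J mice at postnatal day 7 (P7). The question was whether an excess of the ubiquitin ligase UBE3A changes gene expression in the developing brain. The controls were 5 wild-type (WT) mice, numbered 1 to 5 here. The other 5 mice, numbered 6 to 10, were Ube3aOE, which carry 2 extra copies of *Ube3a* on a bacterial artificial chromosome with stretches of its own flanking sequence, a design meant to keep the endogenous pattern of expression. Both tissues came from each mouse, which gives 20 libraries in 4 groups of 5. The labels do not name the transgenic line. The study's characterization centred on line E. Its transgene, like that of line C, lies on chromosome 3, the chromosome of *Gria2*, and an effect of its position was not tested here.

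AMPA receptors assemble as tetramers of GluA1 to GluA4, the products of *Gria1* to *Gria4*. TARPs bind the receptor core, anchor it at the synapse through scaffold proteins such as PSD-95 and slow its closing, and cornichons assist its export from the endoplasmic reticulum and also slow its closing. The subunit mix sets calcium entry, because GluA2 that has been edited at the Q/R site of the pore loop blocks calcium, and young forebrain neurons are known for receptors that change their subunit mix during the first postnatal weeks.

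The stretch of coding sequence around the Q/R site is shown for the 4 subunits because it is where GluA2 comes to differ in function from the other three. The capitals mark the codon of the Q/R site, read from the reference transcripts with 15 bases before it.
Gria1: ctgggggccttcatgCAGcaaggatgtgac
Gria2: ttgggtgcctttatgCAGcaaggatgcgat
Gria3: ttgggtgcttttatgCAGcaaggatgtgat
Gria4: ctgggtgcctttatgCAAcaaggatgtgac
Each window of 30 bases lies within 1 exon of the longest protein-coding transcript in GENCODE M21 on GRCm38. For *Gria1* it is exon 11 at chr11:57243079-57243108 on the plus strand, and for *Gria2* exon 11 at chr3:80706899-80706928 on the minus strand. For *Gria3* it is exon 11 at chrX:41610250-41610279 on the plus strand, and for *Gria4* exon 12 at chr9:4464125-4464154 on the minus strand. Of the 30 positions, 23 carry the same base in all 4 genes, and *Gria2* and *Gria3* differ at only 2 of them. The genome encodes glutamine here in all 4 genes, with CAG in *Gria2*, and the arginine of mature GluA2 arises by editing of the RNA. Reads counted per gene do not show the edited base, so the values below count edited and unedited *Gria2* together, and likewise the flip and flop splice forms of each subunit.

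The subunit genes lie apart in the genome (GRCm38, GENCODE M21). *Gria1* (ENSMUSG00000020524) is at chr11:57011387-57330244, *Gria2* (ENSMUSG00000033981) at chr3:80681450-80802835, *Gria3* (ENSMUSG00000001986) at chrX:41400854-41678601 and *Gria4* (ENSMUSG00000025892) at chr9:4417896-4796234. Among the TARPs, *Cacng2* (ENSMUSG00000019146) is at chr15:77991748-78120028, *Cacng3* (ENSMUSG00000066189) at chr7:122670492-122769393, *Cacng4* (ENSMUSG00000020723) at chr11:107732357-107794557 and *Cacng8* (ENSMUSG00000053395) at chr7:3390683-3415648. The cornichon genes are *Cnih2* (ENSMUSG00000024873) at chr19:5092868-5098521 and *Cnih3* (ENSMUSG00000026514) at chr1:181352628-181460641. Genes on the opposite strand overlap *Cnih2* (*Yif1a*, at most 347 counts in a library), *Cacng4* (*Gm11650*, at most 143) and *Cacng2* (*A730060N03Rik*, at most 52). The libraries were made with a stranded kit, but the sources used here do not say whether the counting used the strand.

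The libraries held 14191093 to 16752326 reads counted on genes. *Ube3a* separated the genotypes, with all 5 Ube3aOE libraries above all 5 WT libraries in each tissue and a log2 difference of 1.32 in hippocampus and 1.31 in cortex. All 8 hippocampus markers were higher in hippocampus than in cortex in the test of region, and 5 of 8 neocortex markers were lower and 1 was higher. Against the other libraries of their tissue, 7 of the 20 stood apart in marker genes of neighbouring tissue. In hippocampus, the summed neocortex markers reached 1155 CPM (TMM-normalised read counts scaled to a common library size) in WT mouse 2 and 817 in Ube3aOE mouse 9, against 403 to 545 in the other 8 libraries. Thalamus markers summed to 1222 CPM in Ube3aOE mouse 10, 597 in Ube3aOE mouse 7 and 486 in WT mouse 4, against 102 to 206 in the others. Choroid plexus markers summed to 1968 CPM in Ube3aOE mouse 7 and 351 in Ube3aOE mouse 9, where the striatum list also reached 641. The choroid plexus genes *Ttr*, *Folr1*, *Kcne2* and *Otx2* and the thalamus gene *Gbx2* were at 0 in at least 1 library, and no marker of the hippocampus, neocortex, striatum, neuron or astrocyte lists was. In cortex, Ube3aOE mice 8 and 9 had neocortex sums of 1763 and 1893 CPM, below the 2172 to 2770 of the other 8, and hippocampus sums of 321 and 322 CPM, above their 205 to 257. The results below are therefore given for all 20 libraries and, where it matters, for the 13 that remain without these 7. The 7 were chosen after seeing the data and partly by their neocortex markers. That choice itself favours wider and tighter differences between the regions, so the 13 libraries are not a separate test of them. Counts of sex-linked genes went against the labelled sex in 2 WT mice, which bears on the X-linked *Gria3* in so far as the label is used.

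Between hippocampus and cortex, 7 of the 10 AMPA receptor genes differed at an adjusted *P* value under 0.05 (edgeR quasi-likelihood F test over 20 libraries), where 50.9% of all 15661 genes tested did. *Gria1*, *Cacng8* and *Cnih2* were higher in hippocampus (3 of 10, against 25.3% of all genes), and *Cacng3*, *Cnih3*, *Cacng4* and *Cacng2* were lower (4 of 10, against 25.6%). *Gria2*, *Gria3* and *Gria4* did not pass. The log2 difference went beyond 0.5 in 4 of the 10, *Gria1*, *Cacng8*, *Cacng3* and *Cnih3*, against 19.2% of all genes. In 5 of the 10 the hippocampus lay on the same side of the cortex in all 10 mice, against 28.2% of all genes. The median log2 difference of the 10 was -0.034, beside -0.0053 over all genes, and among the TARPs and the cornichons genes passed in both directions. In bulk tissue, fewer cells of a type and less RNA per cell cannot be told apart. Astrocyte markers moved with region as well, with a summed level of 1041 to 1576 CPM in hippocampus and 678 to 908 in cortex, and neuron markers summed to 4626 to 5460 CPM in hippocampus and 5208 to 5915 in cortex. The neuron list split, with 2 of 6 markers higher in hippocampus and 3 lower. Of 5 astrocyte markers 4 were higher in hippocampus, of 4 oligodendrocyte precursor markers 3 were, and of 6 GABAergic neuron markers 3 were higher and 1 was lower. The GABAergic neuron markers summed to 426 to 1048 CPM in hippocampus and 449 to 644 in cortex, and those of oligodendrocyte precursors to 274 to 384 and 243 to 329. The part of cell composition in the regional differences was not tested.

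**Figure D1:**
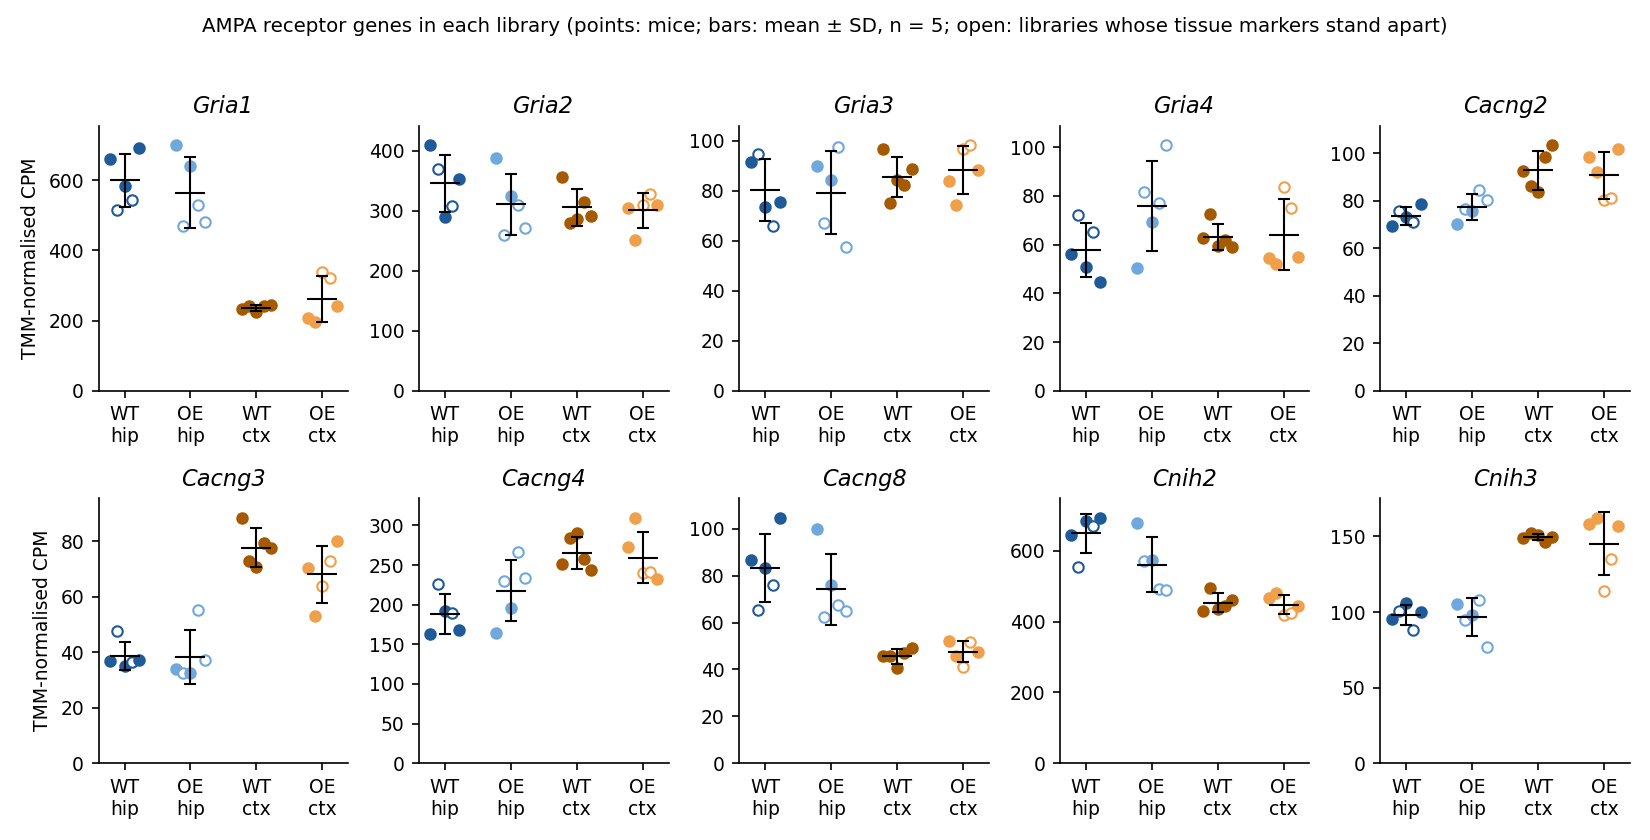
TMM-normalised CPM of each AMPA receptor gene (vertical axes, each from 0) in the libraries of WT and Ube3aOE (OE) hippocampus (hip) and cortex (ctx). Points are mice, bars are the mean ± SD of 5, and open points are the 7 libraries whose tissue markers stood apart. *Gria1* and *Cacng8* sit higher in every hippocampal library than in any cortical one, *Cnih3* sits lower, and the genotypes overlap within each tissue for all 10 genes.

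*Gria1*, which encodes GluA1, the subunit brought to synapses during long-term potentiation, was 2.34-fold higher in hippocampus than in cortex (95% CI 2.02 to 2.71). In WT hippocampus it stood at 661, 515, 584, 545 and 691 CPM in mice 1 to 5, and in Ube3aOE hippocampus at 700, 470, 640, 529 and 482 CPM in mice 6 to 10. In WT cortex the same mice gave 232, 241, 223, 242 and 245 CPM, and in Ube3aOE cortex 206, 197, 339, 321 and 241 CPM. The lowest hippocampal library lay above the highest cortical one, and the hippocampus was higher by 1.65 to 3.39-fold within the mice. The log2 difference was 1.23 (SE 0.10, adjusted *P* = 1.42e-08). The 2 cortical libraries with the most *Gria1*, Ube3aOE mice 8 and 9, are the ones whose neocortex markers were lowest, and the 5 hippocampal libraries with the least *Gria1* are the 5 whose markers stood apart. The part of neighbouring tissue in these values was not tested. Over the 13 remaining libraries the difference was 1.55 (SE 0.055), with 584 to 700 CPM in hippocampus and 197 to 245 in cortex.

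*Gria2*, the subunit that makes receptors impermeable to calcium, did not pass the test between the regions. It ranged from 260 to 409 CPM in hippocampus (median 317) and from 251 to 356 CPM in cortex (median 308), and the hippocampus was higher in 7 of 10 mice. The log2 difference was 0.11 (SE 0.076, 95% CI -0.045 to 0.27, adjusted *P* = 0.226). The call depended on the fit. With the mouse as a block and each library's trend on gene length and GC content removed, the difference was 0.22 (adjusted *P* = 0.000694). Over the 13 libraries, a set chosen partly by region markers, it was 0.26 (SE 0.092, adjusted *P* = 0.0327). Under every fit it was far smaller than that of *Gria1*.

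*Gria3*, the X-linked subunit, and *Gria4*, the subunit prominent in interneurons and in thalamus, overlapped between the regions. *Gria3* ranged from 57.5 to 97.3 CPM in hippocampus and from 74.4 to 98.2 CPM in cortex, with a log2 difference of -0.12 (SE 0.090, adjusted *P* = 0.260). *Gria4* stood at 56.3, 72.1, 50.6, 65.1 and 44.5 CPM in WT hippocampus and at 50.4, 81.5, 69.1, 77.1 and 101 CPM in Ube3aOE hippocampus. In WT cortex it stood at 62.9, 72.4, 59.5, 61.9 and 59.0 CPM, and in Ube3aOE cortex at 54.6, 51.9, 83.9, 75.2 and 54.9 CPM. Its log2 difference between the regions was 0.056 (SE 0.12, adjusted *P* = 0.721), and its sign turned to -0.11 in the WT libraries alone and to -0.079 in the 13. The 4 hippocampal libraries with the most *Gria4*, WT mouse 2 and Ube3aOE mice 7, 9 and 10, are all among those whose markers stood apart, and the highest was Ube3aOE mouse 10, the library with the most thalamus markers.

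**Figure D2:**
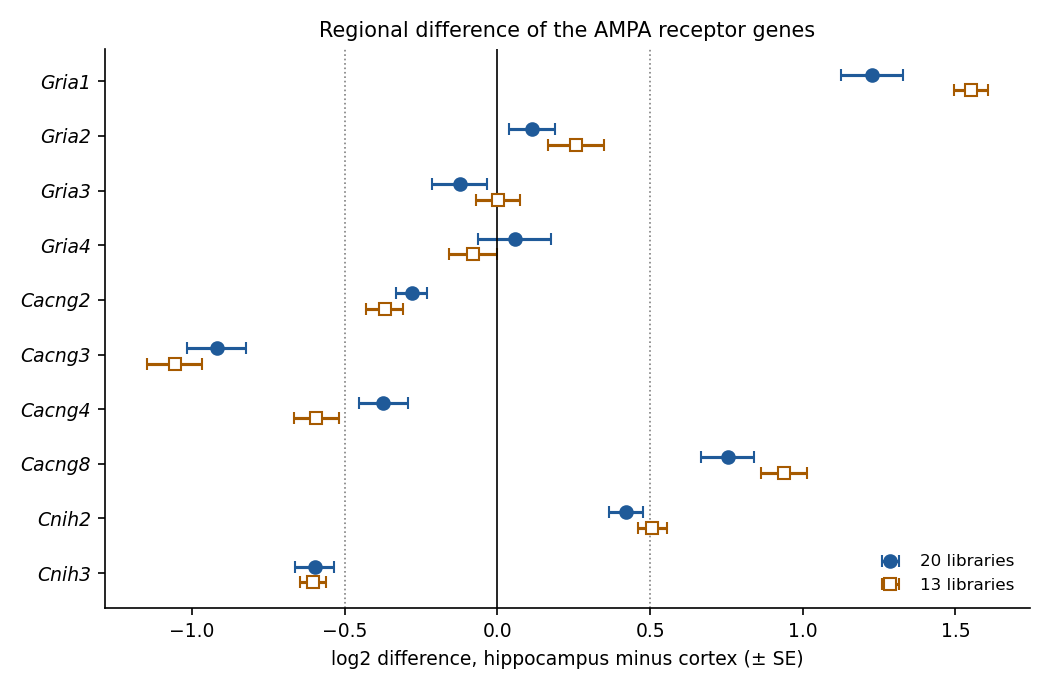
Log2 difference between hippocampus and cortex for each AMPA receptor gene (horizontal axis, bars ± SE), in all 20 libraries and in the 13 that remain without those whose tissue markers stood apart. Dotted lines mark 0.5 on either side of no difference. *Gria1* lies farthest to the right at 1.23 and *Cacng3* farthest to the left at -0.92. Leaving out the 7 libraries, chosen partly by neocortex markers, moves the called genes away from 0, which that choice favours.

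All 4 TARPs of the set differed between the regions, where 50.9% of all genes did. Of the 4, 1 was higher in hippocampus, against 25.3% of all genes, and 3 were lower, against 25.6%. *Cacng8*, which encodes TARP γ-8, the TARP most typical of hippocampal receptors, stood at 86.8, 65.3, 83.4, 75.9 and 105 CPM in WT hippocampus and at 99.8, 62.4, 76.0, 67.6 and 65 CPM in Ube3aOE hippocampus. In cortex it stood at 45.8, 45.9, 40.5, 46.9 and 49.1 CPM in WT and at 52.1, 45.6, 41.2, 51.7 and 47.6 CPM in Ube3aOE mice. No hippocampal library overlapped the cortical range, and the fold within the mice ran from 1.31 to 2.14. The log2 difference was 0.75 (SE 0.086, adjusted *P* = 5.17e-07), a 1.69-fold higher level in hippocampus. As for *Gria1*, the 5 hippocampal libraries with the least *Cacng8* are the 5 whose markers stood apart, and over the 13 remaining libraries the difference was 0.94 (SE 0.075).

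*Cacng3*, which encodes TARP γ-3, went the other way. It stood at 36.8, 47.8, 35.1, 36.4 and 37.2 CPM in WT hippocampus and at 33.9, 32.5, 32.5, 55.1 and 37.1 CPM in Ube3aOE hippocampus. In cortex it stood at 88.4, 72.7, 70.6, 79.1 and 77.5 CPM in WT and at 70.3, 53.0, 63.9, 72.9 and 80.1 CPM in Ube3aOE mice. The cortex was higher in all 10 mice, by a log2 difference of -0.92 for hippocampus minus cortex (SE 0.095, adjusted *P* = 1.70e-07), which is 1.89-fold. The ranges touched only through Ube3aOE mouse 9, whose hippocampal library, at 55.1 CPM, lay above the 53.0 CPM of the cortex of Ube3aOE mouse 7. The 2 hippocampal libraries with the most *Cacng3*, WT mouse 2 and Ube3aOE mouse 9, are the 2 with the most neocortex markers, and over the 13 libraries the regions did not overlap (32.5 to 37.2 CPM against 53.0 to 88.4 CPM).

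*Cacng4* and *Cacng2* were lower in hippocampus by less. *Cacng4*, which encodes γ-4, a TARP of the immature brain, ranged from 163 to 266 CPM in hippocampus and from 233 to 310 CPM in cortex, and *Cacng2*, which encodes stargazin, the founding TARP, from 69.4 to 84.4 CPM and from 80.2 to 103 CPM. The log2 difference of *Cacng4* was -0.37 (SE 0.079, adjusted *P* = 0.000556), with the hippocampus lower in 8 of 10 mice. That of *Cacng2* was -0.28 (SE 0.052, adjusted *P* = 0.000126), with the hippocampus lower in 9 of 10 mice. Both calls held in the WT libraries alone and were lost in the Ube3aOE libraries alone, at -0.24 (adjusted *P* = 0.160) and -0.22 (adjusted *P* = 0.0526). Over the 13 libraries the regions did not overlap for either gene, and the difference of *Cacng4* was -0.59 (SE 0.074), 1.59 times that over 20 libraries.

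The cornichons split as the TARPs did. *Cnih2*, the cornichon of hippocampal pyramidal neurons, stood at 644, 554, 684, 670 and 694 CPM in WT hippocampus and at 679, 571, 573, 493 and 489 CPM in Ube3aOE hippocampus. In cortex it stood at 431, 496, 436, 445 and 462 CPM in WT and at 468, 481, 418, 426 and 444 CPM in Ube3aOE mice. The hippocampus was higher in all 10 mice, although 2 Ube3aOE hippocampal libraries, of mice 9 and 10, lay below the highest cortical library. The log2 difference was 0.42 (SE 0.056, adjusted *P* = 2.60e-06).

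*Cnih3*, the close relative of *Cnih2*, was lower in hippocampus. It stood at 95.5, 100.4, 106, 88.4 and 99.7 CPM in WT hippocampus and at 106, 95, 98.1, 108 and 76.7 CPM in Ube3aOE hippocampus. In cortex it stood at 149, 152, 151, 146 and 150 CPM in WT and at 158, 162, 114, 135 and 157 CPM in Ube3aOE mice. The regions did not overlap, and WT cortex was the tightest group of all, with a coefficient of variation of 1.5%. The log2 difference was -0.60 (SE 0.063, adjusted *P* = 1.39e-07). The 2 lowest cortical libraries were again Ube3aOE mice 8 and 9.

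To set genes beside each other, CPM were divided by the length of the merged exons in kb (RPKM), and each gene was expressed as a share of the summed RPKM of its class within a library. On that scale *Gria1* made up 70.5% ± 3.31 (SD, n = 10) of the subunit mRNA in hippocampus and 51.5% ± 2.83 in cortex, without overlap. *Gria2* made up 15.5% ± 1.30 in hippocampus and 24.7% ± 2.46 in cortex, *Gria3* 5.95% ± 0.902 and 11.1% ± 0.854, and *Gria4* 8.02% ± 2.82 and 12.7% ± 0.982. The share of *Gria1* was higher in hippocampus in all 10 mice, and those of *Gria2* and *Gria3* were lower in all 10. The shares of a class are tied to each other, so a higher *Gria1* lowers the rest. In CPM, *Gria2* was higher in hippocampus in 7 of 10 mice and *Gria3* lower in 8. Neither passed the test between the regions. These shares lean on the length chosen, because the exons of *Gria2* sum to 15548 bases against 6043 for *Gria1*, while their longest coding sequences are nearly equal at 2649 and 2721 bases. Per coding sequence, *Gria2* was the larger share in cortex, 43.9% ± 3.10 against 34.7% ± 2.97 for *Gria1*, and *Gria1* the larger in hippocampus, 54.4% ± 3.18 against 31.5% ± 2.02. The direction between the regions was the same for *Gria1*, *Gria2* and *Gria3* under all 3 lengths tried. *Gria1* had the largest fold of hippocampus over cortex (2.35, geometric mean over the mice) and *Gria3* the smallest (0.909). The largest fold gains share and the smallest loses it at any length, so for *Gria1* and *Gria3* the lengths were no test.

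Among the TARPs of the set, *Cacng4* held the largest share in both tissues. It made up 48.0% ± 5.81 (SD, n = 10) of their summed RPKM in hippocampus and 53.8% ± 3.86 in cortex. The sum leaves out *Cacng5* and *Cacng7*, which are on the list of partners below. *Cacng8* came second in hippocampus at 28.7% ± 6.26, against 14.6% ± 1.25 in cortex, and *Cacng3* came second in cortex at 19.3% ± 2.62, against 11.7% ± 1.47 in hippocampus. *Cacng2* was close in both at 11.6% ± 0.387 and 12.2% ± 1.06. Per coding sequence *Cacng8* fell to 16.3% ± 4.10 in hippocampus, behind *Cacng2* at 20.2% ± 0.908. Likewise *Cacng3* fell to 16.2% ± 2.27 in cortex, behind *Cacng2* at 19.9% ± 1.70. *Cnih2* made up 92.5% ± 1.01 of the summed RPKM of *Cnih2* and *Cnih3* in hippocampus and 86.0% ± 0.896 in cortex. The share of *Cacng8* in hippocampus varied most among the libraries, from 20.8% to 37.5%, and over the 5 hippocampal libraries whose markers did not stand apart it ran from 28.8% to 37.5%.

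**Figure D3:**
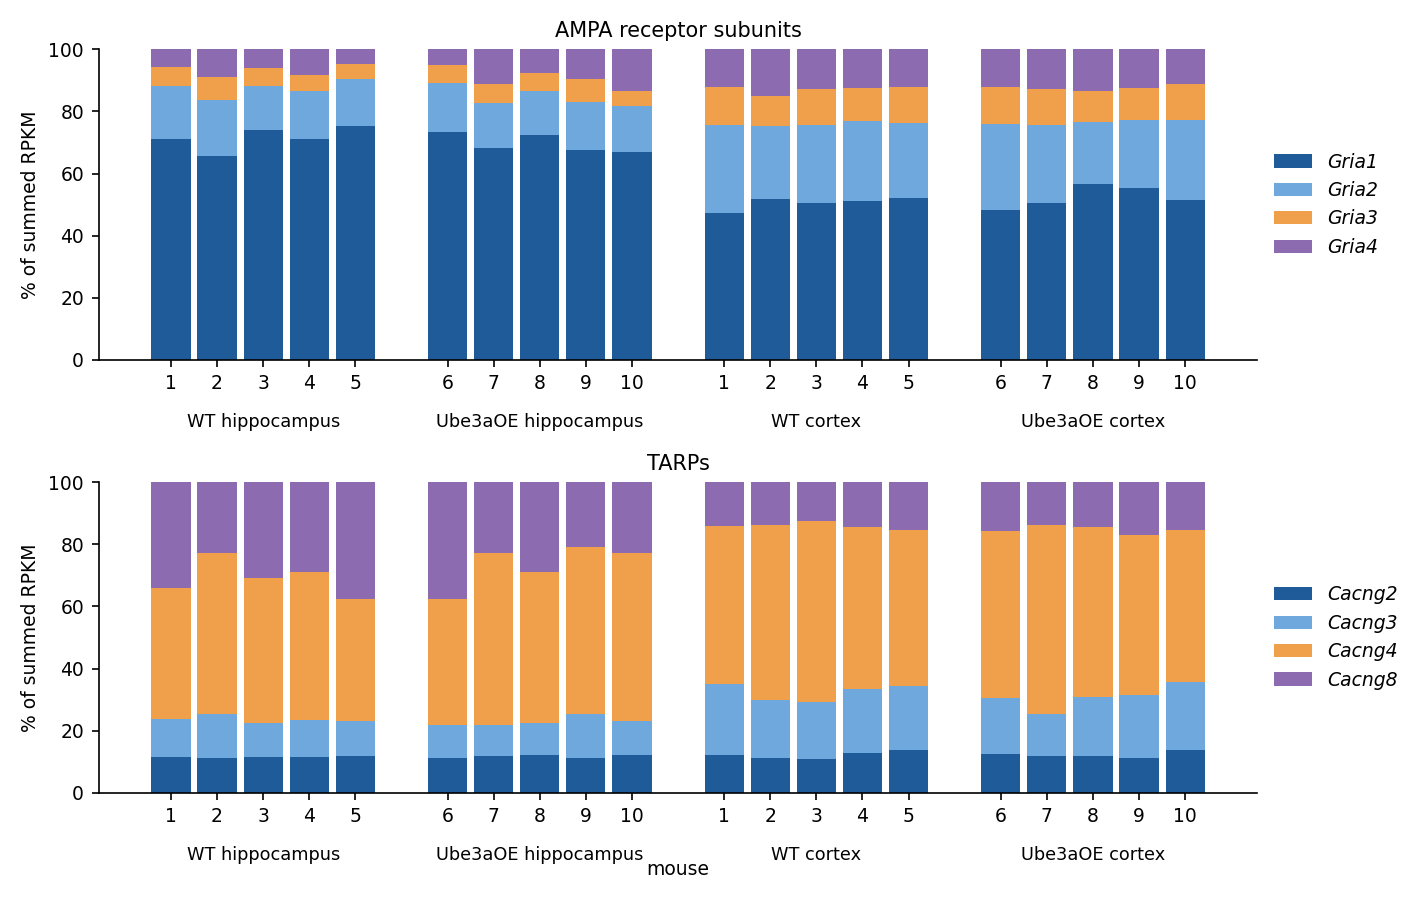
Share of each gene in the summed RPKM of the subunits (top) and of the TARPs of the set (bottom), in percent. There is 1 bar per library with the mouse number below it. *Gria1* fills 65.5% to 75.4% of the hippocampal bars and 47.4% to 56.6% of the cortical bars, and *Cacng8* fills 20.8% to 37.5% and 12.4% to 16.9%.

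Ratios within a library do not depend on its scaling, and the fold between the regions does not depend on gene length. The ratio of *Gria1* to *Gria2* per length was 4.58 ± 0.475 (SD, n = 10) in hippocampus and 2.11 ± 0.342 in cortex, a 2.18-fold difference (geometric mean over the mice, range 1.62 to 2.66). The ratio of *Cacng8* to *Cacng3* was 2.51 ± 0.670 in hippocampus and 0.769 ± 0.116 in cortex, 3.18-fold apart (range 1.73 to 4.56). The ratio of *Cnih2* to *Cnih3* was 12.6 ± 1.66 and 6.18 ± 0.501, 2.02-fold apart (range 1.45 to 2.49). All 3 ratios were higher in the hippocampus of all 10 mice, without overlap between the regions. The plot of ratios within each mouse shows lines that rise in every animal. For *Cacng8* to *Cacng3* and *Cnih2* to *Cnih3* that rise was fixed by the single-gene values. In all 10 mice the first gene of each of these pairs was higher in hippocampus and the second lower. The ratio of *Gria1* to *Cacng8* was also higher in hippocampus in all 10 mice, by 1.41-fold (range 1.02 to 1.77), but the regions overlapped.

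**Figure D4:**
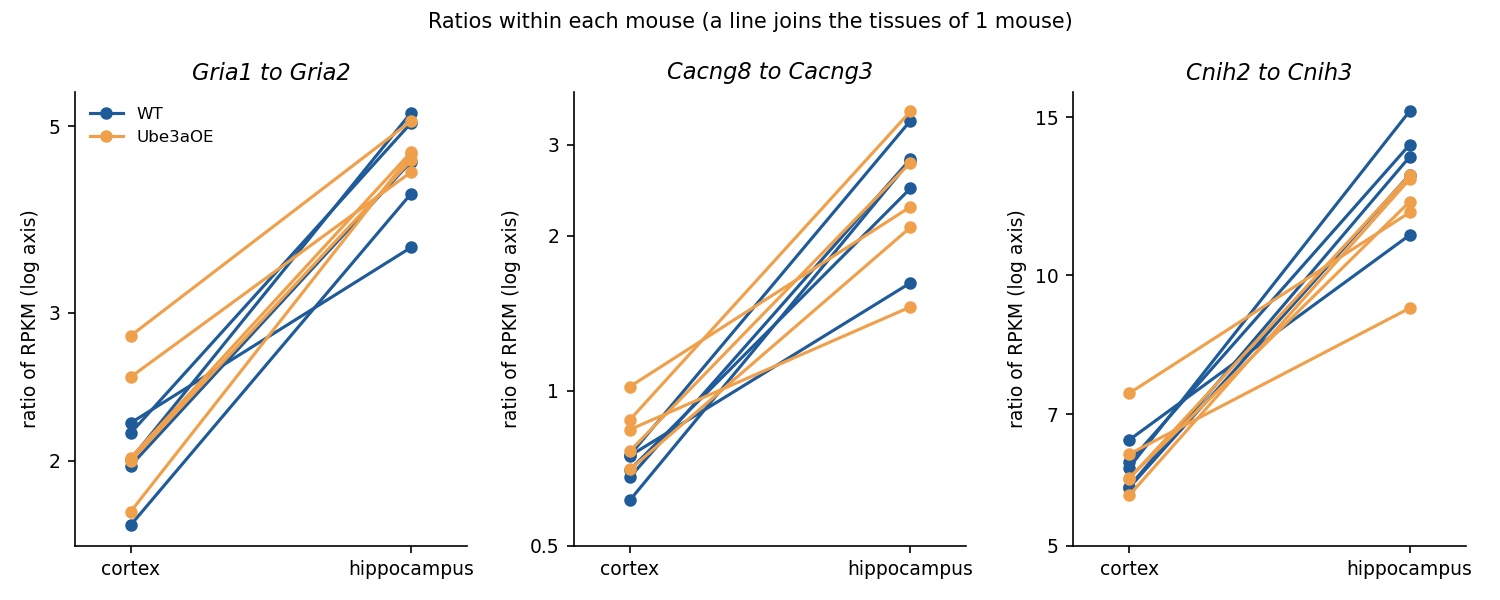
Ratio of RPKM for 3 pairs of genes in the cortex and hippocampus of each mouse (log axes), with a line for each mouse, WT in blue and Ube3aOE in orange. Every line rises towards hippocampus, from 1.68 to 2.82 up to 3.59 to 5.19 for *Gria1* to *Gria2*, from 0.613 to 1.02 up to 1.45 to 3.48 for *Cacng8* to *Cacng3*, and from 5.69 to 7.39 up to 9.19 to 15.2 for *Cnih2* to *Cnih3*.

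Across all 10 genes, *Cnih2* had the highest level per merged exon length in both tissues, with 442 ± 57.7 RPKM (SD, n = 10) in hippocampus and 329 ± 18.5 in cortex. In hippocampus it was followed by *Gria1* (96.3 ± 14.2), *Cacng4* (56.7 ± 9.70), *Cnih3* (35.4 ± 3.39), *Cacng8* (33.6 ± 6.34) and *Gria2* (21.1 ± 3.23). *Cnih3* and *Cacng8* did not differ beyond their spread, and neither did *Cacng3* (13.8 ± 2.62) and *Cacng2* (13.7 ± 0.867), next in the order. *Gria4* (10.6 ± 2.72) and *Gria3* (8.08 ± 1.39) came last and did not differ beyond their spread either. The spread of *Gria4* also met those of *Cacng3* and *Cacng2*. In cortex the order was *Cacng4* (73.3 ± 7.18), *Cnih3* (53.6 ± 5.08), *Gria1* (41.2 ± 7.61), *Cacng3* (26.2 ± 3.48), *Cacng8* (19.9 ± 1.63), *Gria2* (19.5 ± 1.84) and *Cacng2* (16.7 ± 1.56), with *Gria4* (10.1 ± 1.64) and *Gria3* (8.81 ± 0.864) again last. *Cacng8* and *Gria2* did not differ beyond their spread there, and neither did *Gria4* and *Gria3*. The same held in cortex for *Cnih3* and *Gria1* and for *Gria2* and *Cacng2*. By these means *Gria1* ranked 2 of the 10 in hippocampus and 4 in cortex, and *Cacng3* 7 and 5. The order leans on the length chosen as the shares do. Per coding sequence *Gria1* ranked 2 and 6, *Cacng3* 8 and 7, and *Gria2* 5 and 4, where it had ranked 6 and 7. *Gria3* then ranked 9 and *Gria4* 10 in both tissues, the reverse of their order per merged exon length.

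For the 4 genes whose regional log2 difference went beyond 0.5, the 3 other genes with the most similar profile over the 20 libraries were found by the root mean square difference of centred log2 CPM. For *Gria1* these were *Sh3rf1* (0.12), *Dock4* (0.16) and *Clmn* (0.16), against a median of 0.69 over all genes. For *Cacng8* they were *Ak5* (0.11), *Kcnk1* (0.11) and *Mlc1* (0.13), against a median of 0.47. For *Cacng3* they were *Fam81a* (0.13), *Sytl2* (0.14) and *Robo2* (0.15), against 0.55, and for *Cnih3* they were *Arl15* (0.089), *Plppr1* (0.097) and *Plk2* (0.099), against 0.39. None of the 12 is an AMPA receptor gene. All 12 lay on the same side as their member in all 10 mice, where 28.2% of all genes lay on one side in every mouse. They were picked for their similar profile in these libraries, so the shared side and the small distances follow from that choice. The distance includes the step between the regions, which all these genes share.

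Between WT and Ube3aOE mice, none of the 10 AMPA receptor genes passed the test in either tissue (edgeR, Benjamini-Hochberg adjusted). Of all genes, 1 of 15220 passed in hippocampus (0.00657%) and 1 of 14947 in cortex (0.00669%), *Ube3a* itself. At an unadjusted *P* value under 0.05 stood 1 of the 10 in hippocampus, *Cnih2*, against 7.21% of all genes, and 0 of the 10 in cortex, against 4.44%. DESeq2 also called none of the 10. The 95% interval of the log2 difference lay inside -0.5 and 0.5 for 9 of the 10 genes in hippocampus, against 69.9% of all genes, and for all 10 in cortex, against 73.8%. The median log2 difference of the 10 was -0.021 in hippocampus and -0.019 in cortex, beside 0.0023 and 0.0033 over all genes. The genotypes overlapped for every gene in both tissues.

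The gene whose interval in hippocampus reached beyond 0.5 was *Gria4*. Its mean was 57.7 ± 11.0 CPM in WT and 75.8 ± 18.4 CPM in Ube3aOE hippocampus (SD, n = 5 each), and 3 of 5 Ube3aOE libraries lay above all WT libraries. The log2 difference was 0.39 (SE 0.18, 95% CI -0.010 to 0.79, adjusted *P* = 0.668). The Ube3aOE libraries with the most *Gria4* are those of mice 10, 7 and 9, with thalamus sums of 1222 and 597 CPM in mice 10 and 7 and a striatum sum of 641 CPM in mouse 9. GABAergic neuron markers summed to 582 to 659 CPM in WT hippocampus, and in the Ube3aOE mice to 1048 CPM in mouse 9, 426 in mouse 10, 588 in mouse 7 and 645 and 658 in mice 6 and 8. Without the 5 hippocampal libraries whose markers stood apart, which leaves 3 WT and 2 Ube3aOE mice, the difference was 0.24 (SE 0.14). The part of neighbouring tissue or of cell composition in this value was not tested.

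*Cnih2* was the lowest of the 10 relative to WT in hippocampus, with 649 ± 56.4 CPM in WT and 561 ± 77.6 CPM in Ube3aOE mice (SD, n = 5 each). Its log2 difference was -0.21 (SE 0.093, 95% CI -0.41 to -0.0096, adjusted *P* = 0.668), and -0.11 (SE 0.081) without the libraries that stood apart. The remaining 8 genes in hippocampus lay between -0.17 for *Cacng8* (SE 0.15) and 0.21 for *Cacng4* (SE 0.12), with *Gria1* at -0.088 (SE 0.12) and *Gria2* at -0.16 (SE 0.12). Without the libraries that stood apart *Cacng4* was at 0.043 (SE 0.096) and *Cacng8* at -0.065 (SE 0.13), and *Cacng3* moved from -0.019 to -0.13 (SE 0.094). The genotype differences in hippocampus were small beside the regional 1.23 of *Gria1*. Those of *Gria4* (0.39 against 0.056) and *Gria2* (-0.16 against 0.11) were nevertheless larger in size than the regional difference of the same gene. For every other member the regional difference was the larger.

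In cortex the log2 differences ran from -0.19 for *Cacng3* (SE 0.099, adjusted *P* = 0.960) to 0.15 for *Gria1* (SE 0.14, adjusted *P* = 0.967). *Gria1* varied far more among the Ube3aOE than among the WT cortices, 261 ± 65.7 CPM against 237 ± 8.75 CPM (SD, n = 5 each), and *Gria4* did so too, 64.1 ± 14.5 CPM against 63.1 ± 5.43 CPM. For both genes 2 Ube3aOE libraries, mice 8 and 9, lay above every WT library and the other three lay below or within the WT range. Without those 2 libraries the log2 difference of *Gria1* was -0.14 (SE 0.067) and that of *Gria4* -0.23 (SE 0.075), each with the opposite sign to the difference over all 10 cortices and each with an adjusted *P* of 1.00. Which direction the genotype difference of these genes had in cortex therefore depended on the 2 libraries whose neocortex markers were lowest.

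**Figure D5:**
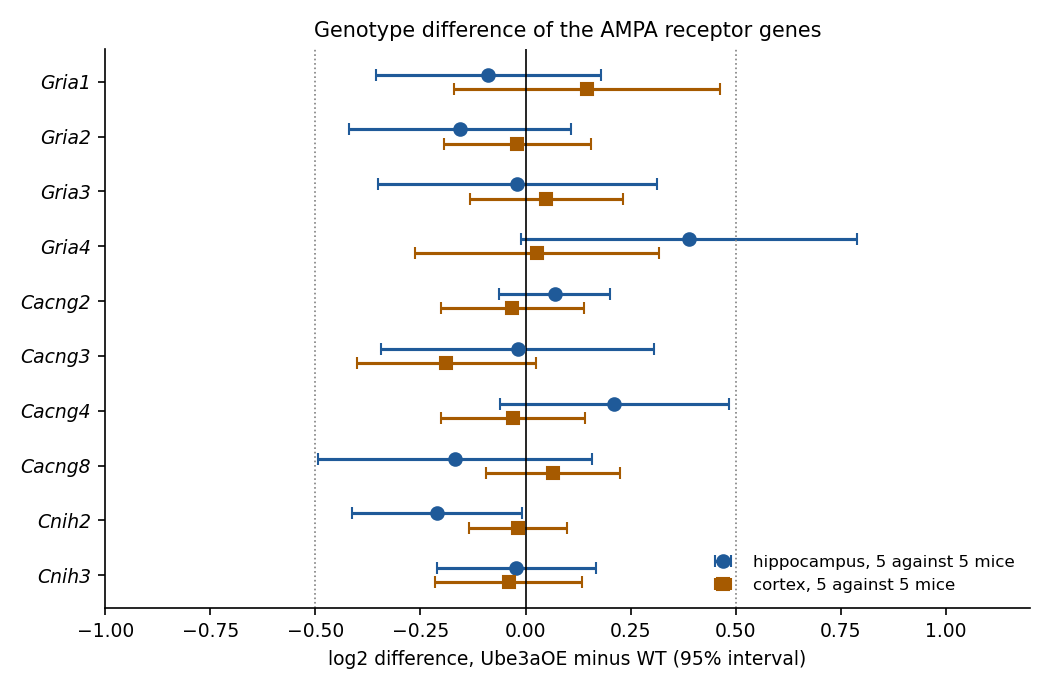
Log2 difference between Ube3aOE and WT for each AMPA receptor gene (horizontal axis) with its 95% interval, in hippocampus (circles) and cortex (squares), 5 against 5 mice each. Dotted lines mark 0.5 on either side of no difference. Every interval but that of *Gria4* in hippocampus, which reaches 0.79, stays between the dotted lines.

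The genotype difference did not differ between the regions for any of the 10 genes at the adjusted threshold (interaction of genotype and region, edgeR), where 0% of all 15661 genes passed. At an unadjusted *P* value under 0.05 stood 0 of the 10, against 3.77% of all genes, and DESeq2 called none of the 10 either. The largest interaction was that of *Gria4*, a log2 difference of 0.37 (SE 0.24, 95% CI -0.13 to 0.87), followed by *Cacng4* at 0.25 (SE 0.16), with *Cacng8* and *Gria1* at -0.23 (SE 0.17 and 0.20). Without the 7 libraries that stood apart *Gria4* was still the largest, at 0.48 (SE 0.16), and was not called. The order after it did not hold, with *Cacng4* at 0.017 (SE 0.14), *Cacng8* at -0.14 (SE 0.15) and *Gria1* at 0.20 (SE 0.11).

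Beyond these 10 genes, 22 further proteins known to bind AMPA receptors or to take part in their assembly were examined, all of which were tested. Between the regions 8 of the 22 were higher in hippocampus, against 25.3% of all genes, 4 were lower, against 25.6%, and 10 did not pass. In total 12 of 22 passed, close to the 50.9% of all genes, which is no result about these partners. Their median log2 difference was 0.15 beside -0.0053 over all genes. The largest difference was that of *Shisa6*, an auxiliary subunit that keeps receptors from desensitizing, with 243 to 499 CPM in hippocampus and 64.2 to 135 CPM in cortex and a log2 difference of 2.00 (SE 0.12, adjusted *P* = 5.69e-10). The neuronal pentraxins *Nptx1* and *Nptx2*, secreted proteins that cluster AMPA receptors, followed at 1.80 (SE 0.13) and 1.55 (SE 0.13), and *Cacng5* at 0.82 (SE 0.12). These 4 were chosen for the size of their regional difference, and each was higher in the hippocampus of all 10 mice, where 28.2% of all genes lay on one side in every mouse. None of the 22 passed between the genotypes in either tissue, where 0.00657% of all genes passed in hippocampus and 0.00669% in cortex.

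Of 18 genes for scaffold, trafficking, kinase and editing proteins of AMPA receptors, 3 were higher in hippocampus, against 25.3% of all genes, 10 were lower, against 25.6%, and 5 did not pass. Their median log2 difference was -0.14 beside -0.0053 over all genes. The 4 with the largest difference are named. *Arc*, an activity-induced gene whose product drives receptor endocytosis, was higher by 1.14 on the log2 scale (SE 0.12), and *Camk2a*, which encodes the kinase α subunit that phosphorylates GluA1 at synapses, by 0.93 (SE 0.12). *Grip2*, which encodes a PDZ protein that binds the tails of GluA2 and GluA3, was lower with a log2 difference of -1.13 (SE 0.11, adjusted *P* = 5.20e-08), and *Dlg2*, which encodes the scaffold PSD-93, with -0.61 (SE 0.090). *Adarb1*, whose product edits the Q/R codon of *Gria2* shown above and which is named for that reason after its values were seen, had a log2 difference of -0.14 between the regions (SE 0.14, adjusted *P* = 0.404). None of the 18 passed between the genotypes, where 1 gene passed in each tissue, so that neither list can be told from other genes by this count.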

How the data were processed

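mRNA was measured by RNA-Seq (stranded mRNA kit) in 20 libraries. The authors deposited 1 file of counts per library, whole reads per gene without normalization. The submitters' processing notes name HISAT2 2.1.0, HTSeq 0.11.2 and GRCm38, and the annotation release and the strand setting are not given in the sources used here. Reads outside genes, ambiguous, unaligned or aligned to several places (5 lines per file) were left out, and 69.7% to 81.2% of reads were counted on genes. A table of the authors' own comparisons in the paper's supplement was not used.

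Genotype, tissue and mouse came from the labels. Both libraries of a mouse come from 1 animal, and their deviations from the group means correlated in 9 of 10 mice by more than 0.1 (median 0.215, lowest -0.0367 in mouse 4, highest 0.248). Counts were tested in R 4.3.3 with edgeR 4.0.16 (TMM, filterByExpr, robust quasi-likelihood F test) and Benjamini-Hochberg adjustment over all genes tested. Genotype was tested within each tissue (10 libraries), and the regions and the interaction over all 20 as 4 groups. Within a tissue, intervals rest on the spread between mice, which are separate animals. The fits of region and interaction took the libraries of both tissues as separate, although they come from the same mice. The mouse as a block is among the alternatives. Log2 CPM used a prior count of 2. Lengths, positions and the Q/R site sequences came from GENCODE M21 (99.1% of identifiers matched). Python 3.11.15, pandas 2.3.3 and matplotlib 3.10.9 made tables and plots.

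All 10 members are named, with *Ube3a*, the 3 genes most like each member with a regional log2 difference beyond 0.5, and the 4 of each further list with the largest regional difference among those called. The members, lists and tests were chosen with earlier results of these data known. The alternatives were DESeq2 1.42.0, its size factors, no filter, the labelled sex (at odds with sex-linked counts in 2 WT mice), all libraries together, a length and GC correction (splines with 5 degrees of freedom), the mouse as a block, each genotype alone, other gene lengths and each mouse left out. Leaving out the 7 libraries whose markers stood apart was chosen after seeing the data. The rule was a choroid plexus, striatum or thalamus sum above 3 times the median of the tissue, or a neocortex sum above 1.5 times the median in hippocampus or below 0.75 times the median in cortex.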

Additional observations from a re-analysis of the deposited data

Results flagged for a closer look

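In 3 of 40 groups of 5 libraries, 1 library lay so far from the others that its gap to the nearest filled more than 0.71 of the whole range, where chance flags about 1 group in 20, or 2 of 40. *Cacng3* was flagged in WT hippocampus, where mouse 2 stood at 47.8 CPM, and in Ube3aOE hippocampus, where mouse 9 stood at 55.1 CPM. These are the 2 hippocampal libraries with the highest neocortex sums, 1155 and 817 CPM. *Gria4* was flagged in WT cortex, where mouse 2 stood at 72.4 CPM, and that library had the lowest share of reads counted on genes, 69.7%. The part of tissue composition or read quality in these values was not tested.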

How the results depend on the processing

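For the 7 AMPA receptor genes called between the regions, 131 of 133 values under the alternatives stayed called in the same direction. The exceptions were *Cacng2* (-0.22) and *Cacng4* (-0.24) in the Ube3aOE libraries alone, where 4075 genes were called in all, against 7973 over both genotypes. Leaving out each mouse gave 7284 to 7980 genes and 7 of the 10 members each time. With the mouse as a replicate block 8737 genes were called, 7860 of them also called without it, and the block changed no call of a member. With the length and GC trend removed as well, *Gria2* was called (0.22). *Gria4* between the regions turned to -0.11 in the WT libraries alone and to -0.079 in the 13 libraries, and *Gria3* to 0.00049 in the 13.

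None of the 480 genotype or interaction values of the members under the alternatives was called, and 48 had the other sign, at most 0.23 in size. Over all genes, the count called between the genotypes in hippocampus was 2 with the labelled sex as a covariate, and in cortex 5 with DESeq2, against 1 each, and 1 each time a mouse was left out. Signs turned in hippocampus for *Cacng3* (0.00070) and *Cnih3* (0.0039) with the length and GC trend removed, and in cortex for *Gria4* (-0.039) and *Cacng2* (0.0073) with the labelled sex. Without the libraries that stood apart they turned in hippocampus for *Gria1* (0.050), *Gria2* (0.022), *Gria3* (0.12), *Cacng2* (-0.022) and *Cnih3* (0.017). In cortex they turned for *Gria1* (-0.14), *Gria3* (-0.059), *Gria4* (-0.23), *Cacng2* (0.067), *Cacng4* (0.034), *Cnih2* (0.031) and *Cnih3* (0.088). In the interaction they turned for *Gria1* (0.20), *Gria2* (0.12), *Gria3* (0.19), *Cacng2* (-0.081) and *Cnih3* (-0.063). The cause was not tested. With each mouse left out in turn, signs also turned for some genes near 0, none of them called. In hippocampus *Gria3* ranged from -0.10 to 0.077, *Cacng3* from -0.18 to 0.074 and *Cnih3* from -0.060 to 0.052. In cortex *Gria2* ranged from -0.056 to 0.042, *Gria4* from -0.093 to 0.095, *Cacng2* from -0.076 to 0.0096, *Cacng4* from -0.10 to 0.0065, *Cnih2* from -0.044 to 0.010 and *Cnih3* from -0.082 to 0.034. Between the regions *Gria4* ranged from -0.032 to 0.13, and in the interaction *Gria3* ranged from -0.13 to 0.043 and *Cnih3* from -0.061 to 0.12.

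Whole-gene counts limit what can be said of splice forms and editing, and shares within a class hold only for the length stated. With 5 mice a group, the intervals give the genotype differences that the data leave possible, and a gene whose own interval leaves out 0, as *Cnih2* in hippocampus, need not pass the test over all genes.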
